A study of Mus musculus with 6 samples.

Results

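Aminoacyl-tRNA synthetases are the enzymes that join each amino acid to the transfer RNAs that carry its anticodons. The genes were chosen as a named list of 37 symbols covering the cytosolic and mitochondrial enzymes. No filter on their values was used, but earlier results of these data were known. Mars1 and Mars are symbols of 1 gene, which is listed here as Mars, so the list came to 36 of the 41255 genes in the table, 20 of them cytosolic and 16 mitochondrial. All 36 were abundant enough to be tested.

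To ask how a leukemia mutation in a protein of the large ribosomal subunit changes mRNA levels, mRNA was sequenced from mouse lymphoid Ba/F3 cells, a line that needs interleukin-3 to grow. RPL10 WT cells (clones 28, 29 and 36) and RPL10 R98S cells (clones 11, 13 and 35) received a human RPL10 cDNA of either form by retrovirus. All 6 clones also carried a short hairpin RNA against mouse Rpl10, and clones were kept for a strong knock-down, so neither group represents unmodified cells. Each library came from a culture grown from a single cell and exposed to 100 µg/ml cycloheximide for 5 min before RNA isolation, so that differences between clones of 1 genotype are part of the spread.

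Every synthetase activates its amino acid with ATP and transfers it to tRNA, and the enzymes fall into a pair of structurally unrelated classes, I and II. Several cytosolic enzymes are held together in the multisynthetase complex, and Eprs joins the glutamate and proline activities in 1 chain. Mitochondria have their own enzymes, encoded by nuclear genes whose symbols end in 2, except that Gars and Kars serve both compartments. Many cytosolic synthetase genes are known targets of ATF4, the transcription factor that is translated when uncharged tRNA activates the amino acid response, whereas the mitochondrial genes are not generally counted among them.

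The libraries held between 21786776 and 24204991 reads assigned to genes, with a read in 18890 to 19958 genes. Values are normalized read counts, meaning reads scaled by the size factor of their library, and errors after ± are SDs over the 3 clones of a group. A gene was called changed at an adjusted p under 0.1 in limma over 11550 tested genes. The interleukin-3 receptor chains were expressed in all clones, with mean normalized counts of 794 in WT and 698 in R98S cells for Il3ra (not called), 51875 and 74703 for Csf2rb (log2 fold change 0.53, adjusted p = 0.0509) and 41054 and 63212 for Csf2rb2 (0.62, 0.0178). Of the B lineage genes, Cd79a (1076 and 1248) was not called, Cd79b (258 and 572) was called higher in R98S cells (1.22, 0.0617), and Ebf1 was near the floor (6.21 and 6.44). Transcripts of the B lineage genes Pax5, Vpreb1 and Igll1 averaged at most 1.27 normalized counts in either group, below the level of 3 reads (2.78 to 3.22 normalized counts). Ptprc, the pan-leukocyte marker, was lower in R98S cells, with 4471 ± 1148 against 11217 ± 2636 normalized counts (log2 fold change -1.33, adjusted p = 0.00894), and the part of these marker differences in the results was not tested. Rpl10, the mouse gene that the hairpin targets, had a log2 fold change of -0.066 (SE 0.23, adjusted p = 0.871). Whether reads of the human cDNA were counted in it was not tested, so the value does not compare RPL10 expression between the groups.

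Among the known features of these genes is the C/EBP-ATF response element, through which ATF4 acts. The letters TGATGNAA, in either orientation, stood in 3.97% of the 32851 RefSeq promoters (GRCm38.p6, windows that span the annotated start of each gene). RefSeq entries matched 27 of the 36 members, and those not matched were Cars, Hars, Lars, Nars, Rars, Vars, Wars, Hars2 and Pars2. The letters were found in 5 of 13 cytosolic promoters and in 0 of 14 mitochondrial ones. The 5 cytosolic promoters are shown to let the element be compared between genes, with the match in capitals and read along the strand of the gene. Aars holds another match past its start, which is not shown.
Aars (chr8:111033706-111033761, plus strand): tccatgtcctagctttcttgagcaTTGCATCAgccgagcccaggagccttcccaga
Gars (chr6:55037947-55038002, plus strand): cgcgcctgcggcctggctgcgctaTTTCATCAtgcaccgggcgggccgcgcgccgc
Iars (chr13:49682113-49682144, plus strand): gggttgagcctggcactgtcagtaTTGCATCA
Tars (chr15:11399649-11399697, minus strand): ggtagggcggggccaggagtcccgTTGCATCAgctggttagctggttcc
Yars (chr4:129189882-129189913, plus strand): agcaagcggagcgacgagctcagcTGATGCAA
The match lay 104 bases before the start in Aars, 22 in Gars and 7 in Tars, and past the annotated start in Iars and Yars. In 4 of these 5 promoters the letters run in the reverse orientation, as TTGCATCA or TTTCATCA.

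The letters CCGGAAG, which the ETS-type factor GABP (a regulator of many genes for mitochondrial proteins) can bind, were in 8.86% of all promoters, in 5 of 13 cytosolic ones (Farsa, Gars, Kars, Mars and Sars) and in 4 of 14 mitochondrial ones (Cars2, Mars2, Rars2 and Sars2). The matches of the 3 genes among these that were called changed are shown in the same way.
Farsa (chr8:84856940-84856994, plus strand): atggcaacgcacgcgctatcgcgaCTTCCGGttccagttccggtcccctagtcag
Mars2 (chr1:55237130-55237184, plus strand): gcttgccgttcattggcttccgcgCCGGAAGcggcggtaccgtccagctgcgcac
Rars2 (chr4:34614929-34614966, plus strand): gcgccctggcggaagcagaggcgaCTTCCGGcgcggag
Of these 3 genes, Farsa was lower and Mars2 and Rars2 were higher in R98S cells, as given below. A match of letters is a description of the window and was not tested for binding.

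R98S cells had higher mRNA levels of 7 of the 16 mitochondrial synthetases, namely Rars2, Ears2, Nars2, Mars2, Lars2, Vars2 and Yars2, by 1.28-fold to 1.83-fold. None of the mitochondrial genes was called lower, with 0 at an unadjusted p under 0.05 and 0 in edgeR and DESeq2 as well. Of the 20 cytosolic synthetases, 1 rose (Farsb) and 1 fell (Farsa), which are the subunits of the same enzyme. Over the whole list 9 of 36 synthetases were called, 8 higher and 1 lower. Among all tested genes 23.9% were called, 10.7% higher and 13.1% lower, so the list as a whole was called about as often as other genes. The median log2 fold change was 0.27 for the mitochondrial list, 0.075 for the cytosolic list and -0.011 over all tested genes, and 12 of 16 mitochondrial and 11 of 20 cytosolic genes had a positive value. The mitochondrial count of 7 was 2 without WT clone 28 or WT clone 29, 4 without R98S clone 11, and 3 once the shift of neighbouring genes, described below, was removed. In bulk RNA, fewer cells that express a gene and less RNA per cell cannot be told apart.

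**Figure D1:**
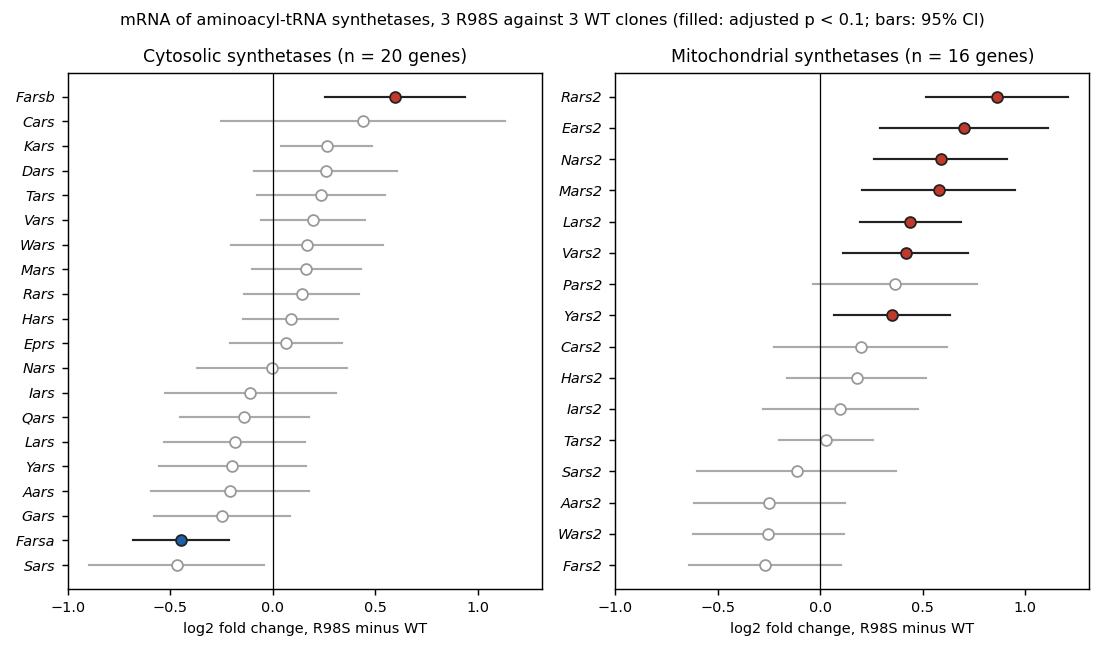
Log2 fold change of R98S over WT for each of the 36 synthetase genes (x axis, on the scale of log2 of the normalized count + 1), with 95% intervals from limma. Cytosolic and mitochondrial genes are shown in separate panels and called genes are filled. The mitochondrial values run from -0.27 to 0.86 and the cytosolic ones from -0.47 to 0.60.

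The values of the R98S clones all lay above those of the WT clones for 8 mitochondrial genes (the 7 called and Pars2) and for 2 cytosolic genes (Farsb and Kars), and all lay below them for Wars2 and Farsa. That makes 12 of the 36 synthetases without overlap, 10 higher and 2 lower. Over all tested genes the groups did not overlap in 37.3%, with R98S higher in 18.1% and lower in 19.2%. By enzyme class, 6 of 19 class I genes were called higher and 0 lower. Of 18 class II genes 2 were called higher and 1 lower, where Eprs counts in both classes. Beside these calls, 10.7% of all tested genes were called higher and 13.1% lower. The called genes of class I are Rars2, Ears2, Mars2, Lars2, Vars2 and Yars2, and those of class II are Nars2, Farsb and Farsa. Whether the compartments or the classes differ from each other was not tested.

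Rars2, the mitochondrial arginyl-tRNA synthetase (chromosome 4, 34614957 to 34660167, plus strand, GRCm38), had the largest change of the list. Its normalized counts were 605, 608 and 712 in the WT clones 28, 29 and 36, and 1223, 969 and 1328 in the R98S clones 11, 13 and 35. The lowest R98S clone exceeded the highest WT clone, and the means were 642 ± 60.5 and 1173 ± 185 (1.83-fold, log2 fold change 0.86, SE 0.15, adjusted p = 0.0112). Rars2 stayed past the threshold under all 17 alternatives, and the promoter bases shown above belong to this gene. Its 30 nearest tested genes on the chromosome were themselves shifted in R98S cells, and once their median deviation was subtracted in each library the log2 fold change was 0.50 (adjusted p = 0.0487).

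Lars2, the mitochondrial leucyl-tRNA synthetase (chromosome 9, 123366927 to 123462666, plus strand), was the most abundant mitochondrial member per kilobase of transcript. WT clones held 3107, 2971 and 2856 normalized counts and R98S clones 3999, 3671 and 4475. All R98S clones were above all WT clones, with means of 2978 ± 125 and 4048 ± 404 (1.36-fold, log2 fold change 0.44, SE 0.11, adjusted p = 0.0318). Here the neighbouring genes moved the other way, and after removal of their shift the log2 fold change was 0.60 (adjusted p = 0.00781). The call was narrowly lost without WT clone 29 (log2 fold change 0.44, adjusted p = 0.100025).

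Ears2, which charges mitochondrial tRNA with glutamate (chromosome 7, 122037213 to 122067263, minus strand), is a weakly expressed member. It had 218, 230 and 245 normalized counts in the WT clones and 372, 312 and 458 in the R98S clones. The groups did not overlap, although R98S clone 13 was nearer to the WT clones than the others were, and the means were 231 ± 13.6 and 381 ± 73.2 (1.65-fold, log2 fold change 0.70, SE 0.18, adjusted p = 0.0361). The call was lost without WT clone 28 (adjusted p = 0.129), without WT clone 29 (0.104) and after removal of the neighbours' shift (log2 fold change 0.33, adjusted p = 0.186).

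Nars2, the mitochondrial asparaginyl-tRNA synthetase (chromosome 7, 96951505 to 97064758, plus strand), had 445, 456 and 507 normalized counts in the WT clones and 769, 612 and 743 in the R98S clones. Again every R98S clone was above every WT clone, with R98S clone 13 the lowest of its group. Mean normalized counts were 469 ± 33.2 and 708 ± 84.0 (1.51-fold, log2 fold change 0.59, SE 0.14, adjusted p = 0.0297). Leaving out WT clone 28 gave an adjusted p of 0.120, and removal of the neighbours' shift a log2 fold change of 0.33 (adjusted p = 0.113).

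Mars2, the mitochondrial methionyl-tRNA synthetase, is encoded on chromosome 1 (55237177 to 55248470, plus strand). Normalized counts were 945, 859 and 883 in the WT clones and 1707, 1141 and 1223 in the R98S clones, so that R98S clone 11 stood above the other R98S clones. The means were 895 ± 44.7 and 1357 ± 306 (1.52-fold, log2 fold change 0.58, SE 0.16, adjusted p = 0.0491). The call did not hold without R98S clone 11 (log2 fold change 0.40, adjusted p = 0.102), WT clone 28 (0.116), WT clone 29 (0.138) or the neighbours' shift (log2 fold change 0.25, adjusted p = 0.287).

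Smaller changes were measured for Vars2 and Yars2, the mitochondrial valyl- and tyrosyl-tRNA synthetases. Vars2 lies on chromosome 17 (35655634 to 35667592, minus strand), and its normalized counts were 659, 575 and 598 in the WT clones and 895, 720 and 837 in the R98S clones. Yars2 (chromosome 16, 16302965 to 16309640, plus strand) had 606, 550 and 561 in the WT clones and 761, 669 and 761 in the R98S clones. In both genes the groups did not overlap and R98S clone 13 was the lowest R98S clone. The log2 fold change of Vars2 was 0.42 (SE 0.13, 1.34-fold, adjusted p = 0.0724) and that of Yars2 was 0.35 (SE 0.12, 1.28-fold, adjusted p = 0.0939). These calls were the least firm of the list, since leaving out any clone other than R98S clone 13 ended them (adjusted p between 0.128 and 0.255), as did testing without an expression filter (0.128 for Vars2 and 0.189 for Yars2). After removal of the neighbours' shift Vars2 was not called (log2 fold change 0.20, adjusted p = 0.194) and Yars2 was (0.40, adjusted p = 0.0449).

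**Figure D2:**
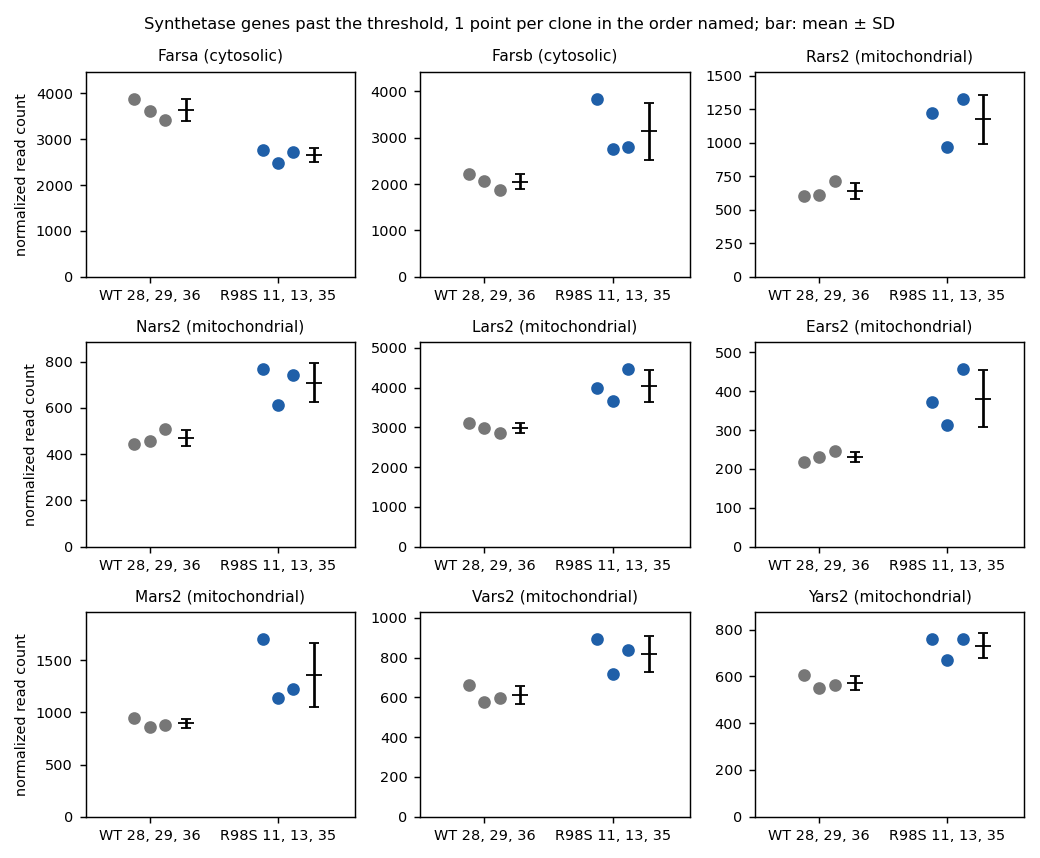
Normalized read counts (y axis, linear, from 0) of the 9 called synthetase genes in each clone, with 1 panel per gene, the clones of each group as points in the order named and a bar for the mean ± SD. In every panel the groups do not overlap, with R98S higher except for Farsa.

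The other 9 mitochondrial genes were not called. Among them Pars2, the prolyl enzyme, came closest, with 242, 187 and 245 normalized counts in the WT clones and 261, 293 and 309 in the R98S clones. Its groups did not overlap, but the log2 fold change of 0.36 had an SE of 0.17 (adjusted p = 0.196), and it was 0.065 once the neighbours' shift was removed. Fars2, the monomeric phenylalanyl enzyme of mitochondria, had 358, 394 and 367 in the WT clones and 274, 368 and 293 in the R98S clones. Only R98S clone 13 fell among the WT values, and the log2 fold change was -0.27 (adjusted p = 0.291), or -0.40 with an adjusted p of 0.0967 without that clone. Wars2 (tryptophan) had a log2 fold change of -0.26 and Aars2 (alanine) of -0.25, with means of 396 against 330 and of 1165 against 989. The remaining genes, Cars2, Hars2, Iars2, Sars2 and Tars2, had log2 fold changes between -0.12 and 0.20, all with intervals that included 0.

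Farsa and Farsb encode the alpha and beta subunits of cytosolic phenylalanyl-tRNA synthetase, which work together in equal numbers, and moved in opposite directions. Farsa (chromosome 8, 84856989 to 84869257, plus strand), the catalytic subunit, had 3887, 3611 and 3413 normalized counts in the WT clones and 2769, 2493 and 2724 in the R98S clones. Farsb (chromosome 1, 78417975 to 78488897, minus strand) gave 2210, 2075 and 1877 in the WT clones and 3842, 2765 and 2804 in the R98S clones. Neither gene showed overlap between the groups. Farsa was 0.732-fold (log2 fold change -0.45, SE 0.10, adjusted p = 0.0249) and Farsb 1.53-fold (log2 fold change 0.60, SE 0.15, adjusted p = 0.0332) of its WT mean.

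The log2 ratio of Farsb to Farsa within a clone was -0.83 ± 0.033 in WT and 0.22 ± 0.22 in R98S cells, a difference of 1.05 (exact two-sided permutation p = 0.1, the lowest value possible for 3 against 3 clones). Both genes separated the groups, in opposite directions, so their ratio had to separate them too. This p therefore adds nothing to the calls of the single genes. Per kilobase of transcript, Farsa lay above Farsb in WT cells (1992 and 1009 normalized counts) and close to it in R98S cells (1458 and 1541). The Farsb call held under all 17 alternatives, with a log2 fold change of 0.57 (adjusted p = 0.0381) after the neighbours' shift was removed. The Farsa call was lost without WT clone 28 (log2 fold change -0.40, adjusted p = 0.120), and after removal of the neighbours' shift, which was -0.37, its log2 fold change was -0.076 (adjusted p = 0.643).

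**Figure D3:**
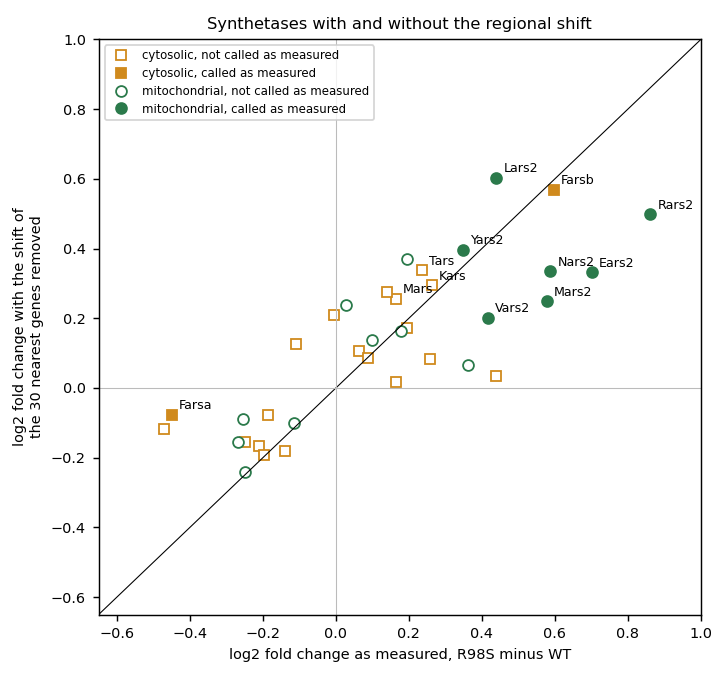
Log2 fold change of each synthetase gene as measured (x axis) against its value after the median deviation of its 30 nearest tested genes was subtracted in each library (y axis), with genes called as measured filled. Farsa moves from -0.45 to -0.076 and Rars2 from 0.86 to 0.50, while Lars2 moves from 0.44 to 0.60 and Farsb from 0.60 to 0.57. The diagonal marks equal values.

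Other synthetases were called once this shift was taken out. With the neighbours' shift removed, 3 mitochondrial genes were higher (Lars2, Rars2 and Yars2) and 4 cytosolic genes were higher (Farsb, Kars, Mars and Tars), with 0 cytosolic genes lower. Over all 11007 genes tested in that setting, 1302 were called higher and 1479 lower. Kars, the lysyl enzyme of both compartments, had 7212, 7103 and 6788 normalized counts in the WT clones and 8406, 8996 and 7933 in the R98S clones. Its groups did not overlap. The log2 fold change was 0.26 (SE 0.097, adjusted p = 0.106), short of the threshold, and it passed with edgeR (0.0951), with DESeq2 (0.0475) and with the shift removed (0.30, 0.0680). Mars and Tars, the methionyl and threonyl enzymes of the cytosol, had log2 fold changes of 0.16 and 0.24 as measured (adjusted p = 0.369 and 0.272) and of 0.26 and 0.34 with the shift removed (0.0956 and 0.0883). Whether the shifts of neighbouring genes belong to the genotype or to single clones was not tested.

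Sars, the seryl-tRNA synthetase of the cytosol, had the most negative log2 fold change of the list but was not called. Normalized counts were 8810, 10271 and 6990 in the WT clones and 6241, 7568 and 5040 in the R98S clones. The highest R98S clone, 13, lay above the lowest WT clone, 36. The log2 fold change was -0.47 (SE 0.19, adjusted p = 0.125). It was called with DESeq2 (-0.46, 0.0742), without WT clone 36 (-0.62, 0.0665) and without R98S clone 13 (-0.61, 0.0623), and with the neighbours' shift removed it was -0.12 (adjusted p = 0.614).

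Cars, the cysteinyl enzyme, was set apart by a single clone. It had 2695, 2883 and 1185 normalized counts in the WT clones and 2801, 2806 and 2911 in the R98S clones, so that WT clone 36 was low while the other 5 clones were close together. The log2 fold change was 0.44 (SE 0.30, adjusted p = 0.357). Dars, the aspartyl enzyme, had a single low R98S clone, with 6181, 5656 and 5634 in the WT clones, 8322 and 7289 in the R98S clones 11 and 13, and 5544 in R98S clone 35. Its log2 fold change was 0.26 (adjusted p = 0.284), and 0.42 (adjusted p = 0.0661) without R98S clone 35.

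The other cytosolic genes had log2 fold changes between -0.25 (Gars) and 0.24 (Tars). Positive values were found for Eprs, Hars, Mars, Rars, Tars, Vars and Wars, and negative values for Aars, Gars, Iars, Lars, Nars, Qars and Yars. The value of Nars, -0.0042, changed sign when libraries were given equal totals (0.016) or equal upper quartiles (0.036). Among the 8 enzymes of the multisynthetase complex 0 were called by limma (1, Kars, at an unadjusted p under 0.05 and in edgeR and DESeq2) and the median log2 fold change was 0.10. Of all tested genes 23.9% were called, and with 8 genes a count of 0 does not show that the complex was unchanged.

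By level, the cytosolic genes ranged per kilobase of transcript from 700 (Cars) to 4982 (Gars) normalized counts in WT cells, followed at the top by Nars (4134) and Kars (3503). The mitochondrial genes ranged from 79.3 (Mars2, which has a transcript of 11294 bases) to 765 (Lars2). Of all reads assigned to genes, cytosolic synthetases took 0.564% ± 0.065 in WT and 0.569% ± 0.0077 in R98S cells. Mitochondrial synthetases took 0.0599%, 0.0567% and 0.0631% in the WT clones 28, 29 and 36, and 0.0775%, 0.0693% and 0.0742% in the R98S clones 11, 13 and 35. The cytosolic shares of the groups overlapped and the mitochondrial shares did not, with R98S cells higher. Read shares of other gene lists were not computed for comparison.

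When each mitochondrial gene was set against the cytosolic gene for the same amino acid in the same clone, 12 of 17 pairs had a higher mean log2 ratio in R98S cells. In 6 pairs the R98S clones all lay above the WT clones, by 0.72 for Rars2 to Rars, 0.64 for Ears2 to Eprs, 0.63 for Lars2 to Lars, 0.55 for Yars2 to Yars, 0.41 for Mars2 to Mars and 0.22 for Vars2 to Vars. In 1 pair, Fars2 to Farsb, they all lay below, by a difference of -0.87. Each of these 7 pairs gave an exact two-sided permutation p of 0.1, the lowest value possible for 3 against 3 clones. That value follows from the lack of overlap by which these pairs were singled out, so it is no further support. Pairs that use Eprs or Fars2 more than once share values, and the 6 higher pairs hold genes already called above. Of single tested genes, 18.1% had all R98S clones above all WT clones and 19.2% had them all below. The same share over other pairs of genes was not computed.

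The cytosolic genes known as ATF4 targets (Aars, Cars, Eprs, Gars, Iars, Lars, Mars, Nars, Sars, Tars, Vars, Wars and Yars) were not called in either direction by limma, with 0 of 13 past the threshold and 1 (Sars) at an unadjusted p under 0.05 and in DESeq2, and 0 in edgeR. Their median log2 fold change was -0.0042, and of all tested genes 23.9% were called. The spread of the WT clones was wide, because WT clone 36 was lower than WT clones 28 and 29. In 12 of the 13 genes (92.3%) it was the lowest of the 3 WT clones, and in 9 of 13 the lowest of all 6 clones. Over all tested genes, WT clone 36 was the lowest WT clone in 43.2%. It was the lowest WT clone for 18 of 20 cytosolic genes and for 3 of 16 mitochondrial genes.

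**Figure D4:**
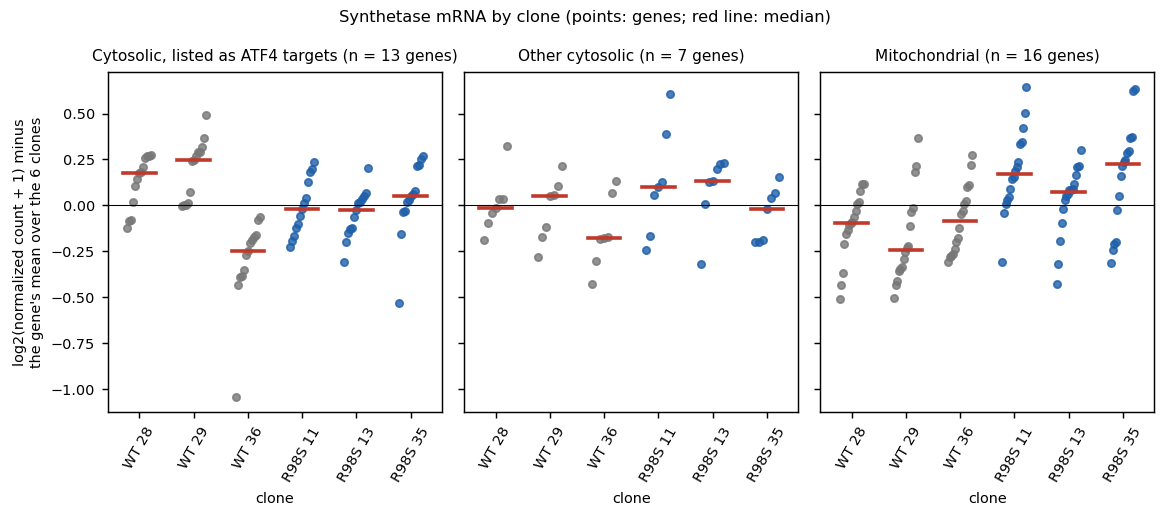
Deviation of each synthetase gene from its mean over the 6 clones (y axis, log2), by clone (x axis), for the cytosolic ATF4 targets, the other cytosolic genes and the mitochondrial genes, with the median as a red line. The median of the ATF4-regulated genes is 0.18, 0.25 and -0.25 in the WT clones 28, 29 and 36 and lies between -0.024 and 0.051 in the R98S clones, while the mitochondrial median is below 0 in all WT clones and above 0 in all R98S clones.

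Without WT clone 36 the picture of the cytosolic genes differed. Then 5 of them were called lower in R98S cells, beside 1401 of all 11548 genes tested without that clone. The 5 log2 fold changes were -0.62 for Sars (adjusted p = 0.0665), -0.49 for Farsa (0.0333), -0.41 for Gars (0.0528), -0.40 for Aars (0.0728) and -0.36 for Lars (0.0620). Asns, the asparagine synthetase and a well-known ATF4 target, moved in the same manner, from a log2 fold change of -0.14 (adjusted p = 0.671) with all clones to -0.40 (0.0534) without WT clone 36. The letters TGATGNAA stood in the promoters of Aars and Gars but not in those of Sars and Farsa, and Lars had no promoter entry. Iars, Tars and Yars, which also hold these letters, were not called without WT clone 36. Whether the letters bear on these calls was not tested. The reason for the low values of WT clone 36 was not tested. From a different mRNA dataset, the one matched to polysome profiling, the paper excluded a sample labelled WT36. It gave as reason that this sample grouped with R98S samples in a principal component analysis. For the dataset used here, the paper reported that such an analysis separated the R98S from the WT samples.

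Genes of the amino acid stress response other than synthetases were lower in part. Of 22 tested, 7 were called lower and 1 higher, and the median log2 fold change was -0.28. The shares over all tested genes were 13.1% lower and 10.7% higher. The lowest were Nupr1, a stress-induced chromatin protein (-2.45), Atf5, a transcription factor of the same response (-1.86), and Slc7a11, the cystine transporter (-1.77). The Slc7a11 call was lost without WT clone 28, WT clone 29, R98S clone 11 or R98S clone 35 (adjusted p between 0.159 and 0.208) and without an intensity trend (0.130). Ddit3, which encodes the factor CHOP, had 558, 1196 and 455 normalized counts in the WT clones and 265, 376 and 282 in the R98S clones (log2 fold change -1.14, adjusted p = 0.0562). Ddit3 shares 68 exonic bases with Mars on the opposite strand. Atf4 itself had a log2 fold change of -0.27 (adjusted p = 0.148). The gene called higher was Psph, the last enzyme of serine synthesis, with 100 ± 9.11 and 616 ± 53.1 normalized counts (log2 fold change 2.61). In this list, too, WT clone 36 was the lowest WT clone for 20 of 22 genes (90.9%), and the median deviations were 0.29, 0.38 and -0.16 in the WT clones 28, 29 and 36, against -0.25, -0.11 and -0.13 in the R98S clones 11, 13 and 35.

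Among 14 other tested genes of tRNA charging, 3 were higher and 0 lower in R98S cells, with a median log2 fold change of 0.13. The shares over all tested genes were 10.7% higher and 13.1% lower. Prorsd1, a protein related to the editing domain of prolyl-tRNA synthetase, rose by 0.63 on the log2 scale (adjusted p = 0.0415), and Dtd1, which removes D-amino acids from tRNA, by 0.49 (0.0538). The call of Prorsd1 was lost without WT clone 28 (adjusted p = 0.125), WT clone 29 (0.136) or R98S clone 11 (0.110), and that of Dtd1 without WT clone 28 (0.160), 29 (0.113) or 36 (0.110). The scaffolds Aimp1 and Aimp2 of the multisynthetase complex were not called, with log2 fold changes of -0.13 and 0.30.

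The genes that make tRNA ready for charging were also examined. Beside the counts that follow, 10.7% of all tested genes were called higher and 13.1% lower. Of 21 for tRNA processing and export, 8 were higher and 1 lower, with a median log2 fold change of 0.33. The highest were Tsen15, a subunit of the tRNA splicing endonuclease (0.93, adjusted p = 0.0210), and Pop1 (0.68, 0.0218) and Rpp40 (0.67, 0.0305) of ribonuclease P, which trims the leading end of tRNA. The lower gene was Hsd17b10, a subunit of the mitochondrial form of that enzyme (-0.73, 0.0742), for which R98S clone 13, at 4117 normalized counts, lay close to the WT clones (4133 to 5546) and above the other R98S clones (2180 and 2413). The call of Hsd17b10 was lost in edgeR (adjusted p = 0.108), without an intensity trend (0.130), with the neighbours' shift removed (0.129) and without any clone other than R98S clone 13 (0.128 to 0.216), and that of Rpp40 without WT clone 28 (0.128). Of 22 genes for transcription of tRNA by RNA polymerase III, 4 were higher, led by Polr3g (0.45), Gtf3c1 (0.43) and Gtf3c6 (0.38), and 2 were lower, Brf2 (-0.70) and Polr3gl (-0.60). Of these 5, Gtf3c1 alone held with each clone left out. Polr3g and Brf2 were lost without WT clone 28, WT clone 29 or R98S clone 11 (adjusted p between 0.111 and 0.170), and Gtf3c6 and Polr3gl without any clone other than R98S clone 13 (0.125 to 0.248), without a filter (0.184 and 0.103) and without an intensity trend (0.109 and 0.113). Polr3g and Polr3gl encode alternative forms of the same polymerase subunit and moved in opposite directions.

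Of 14 genes that act on charged tRNA and at the mitochondrial ribosome, 2 were higher and 0 lower, with a median log2 fold change of 0.19. The shares over all tested genes were 10.7% higher and 13.1% lower. Tufm, the elongation factor that brings charged tRNA to the mitochondrial ribosome, had 687, 715 and 647 normalized counts in the WT clones and 1042, 1003 and 1086 in the R98S clones. Its groups were well separated (log2 fold change 0.61, SE 0.11, adjusted p = 0.0127). Mtrf1, a mitochondrial release factor, had a log2 fold change of 0.81 (adjusted p = 0.0116). Among the subunits of EF1, the factor that delivers charged tRNA in the cytosol, Eef1a1 had a log2 fold change of -0.12 and Eef1b2 of 0.37 (adjusted p = 0.672 and 0.175, and 0.0745 for Eef1b2 in DESeq2). With the neighbours' shift removed Eef1b2 was 0.065 (adjusted p = 0.792). The groups did not overlap for Eef1d, which was not called (log2 fold change 0.25, adjusted p = 0.116).

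**Figure D5:**
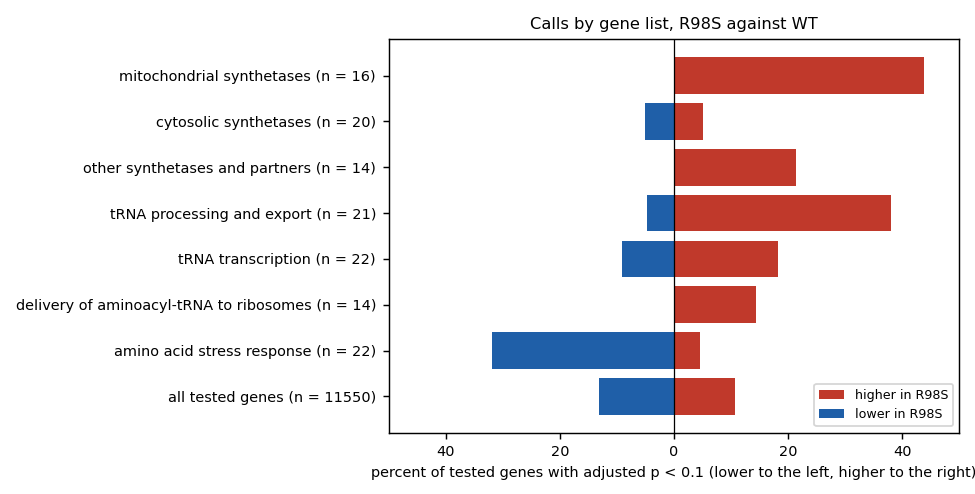
Percent of tested genes called at an adjusted p under 0.1 in each list (rows), with genes higher in R98S cells to the right and lower ones to the left (x axis). Bars to the right are longest for the mitochondrial synthetases (7 of 16 genes), followed by tRNA processing and export (8 of 21), and the bar to the left for the amino acid stress response (7 of 22), beside 10.7% higher and 13.1% lower among all tested genes.

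Reads of overlapping genes limit some of these values, since it is not stated whether the counting used strand. On the opposite strand, Farsb shares 248 exonic bases with Sgpp2, Ears2 89 with Ubfd1, Nars2 284 with C230038L03Rik and Vars2 465 with Gm20483. Hars and Hars2 share 195 with each other, and the longest overlap is that of Iars2 with Rab3gap2 (2034). Aars shares 1326 with Exosc6 on the same strand, which counting by strand would not separate. Rars2, Lars2, Mars2, Yars2 and Farsa had no such overlap in GENCODE M21.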

How the data were processed

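Messenger RNA libraries of 3 RPL10 WT and 3 RPL10 R98S Ba/F3 clones were analyzed, grouped by the clone names in their labels. The authors prepared strand-specific libraries and, by their methods and processing notes, used Bowtie2, TopHat, SAMtools, HTSeq and DESeq2 with mouse build GRCm38 (mm10). Each deposited value is a signal, a normalized count that the authors obtained by scaling the reads of a gene with the size factor of the library. In each library 100% of values were whole multiples of the worth of 1 read (tolerance 0.0001), so reads could be recovered for the count tests used as alternatives. Depth was similar across libraries, and 3 reads were taken as the floor.

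The test was limma (version 3.58.1, R 4.3.3, intensity trend, two-sided), run where the mean over the libraries reached 10 normalized counts, on log2(normalized count + 1), with Benjamini-Hochberg adjustment over 11550 genes and a threshold of 0.1. The log2 scale with a pseudocount understates changes of weakly expressed genes. Labels call the libraries separate clones, and p-values measure the spread between these clones. Alternatives were pseudocounts of 0.5 and 5, a filter at a mean of 50 or none, equal totals or equal upper quartiles, no trend, a threshold of 0.05, edgeR (version 4.0.16), DESeq2 (version 1.42.0), each clone left out, and removal of the median deviation of the 30 nearest tested genes (coordinates from GENCODE M21). The fit was tested on simulated data. Level per kilobase used the length of the principal transcript.

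Every member is named. Values of each clone are printed for called members and for the 6 others with the largest absolute change. From other lists, up to 3 called genes in each direction are named, with Atf4, Ddit3, Asns, Psph and Rpl10 whatever their values. Genes named as not called in those lists, and the markers named, were chosen after their values were seen. The members and lists were chosen with earlier results of these data known. Table columns of other samples numbered 0. Of the 3 genes called higher among the other genes of tRNA charging, 1 is not reported here.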

Additional observations from a re-analysis of the deposited data

How the results depend on the processing

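No paired analysis was possible because the clone numbers of the WT and R98S groups do not match. Over 17 alternatives and 36 synthetases, 556 of 612 comparisons kept direction and side of the threshold, 27 lost a call, 16 gained one and 13 changed sign. The cytosolic count of 1 higher became 2 with scaling to the same total or upper quartile, edgeR or DESeq2 and 4 with the regional shift removed, and 1 to 2 with a clone left out. The cytosolic count of 1 lower became 2 with DESeq2, 0 with the regional shift removed, and 0 to 5 with a clone left out (5 without WT clone 36, 0 without WT clone 28). The mitochondrial count of 7 higher became 3 with the regional shift removed, 5 without a filter or at a threshold of 0.05, and 2 to 7 with a clone left out (2 without WT clone 28 or 29), and 0 lower became 0 to 1 (Fars2, without R98S clone 13). Over all genes, 776 were higher and 946 lower at an adjusted p under 0.05, and 591 to 1432 higher and 736 to 1787 lower with a clone left out, against 1241 and 1514. Log2 fold changes near 0 changed sign: with the regional shift removed, Iars was 0.13, Nars 0.21 and Rpl10 0.039. Nars was 0.016 with the same total and 0.036 with the same upper quartile. With a clone left out, values ran from -0.012 to 0.16 for Eprs, -0.33 to 0.046 for Iars, -0.18 to 0.12 for Nars, -0.0077 to 0.30 for Wars, -0.029 to 0.28 for Iars2, -0.29 to 0.069 for Sars2, -0.0087 to 0.048 for Tars2, -0.29 to 0.13 for Rpl10 and -0.40 to 0.018 for Asns. Fewer clones were fitted there, and the causes of the other moves were not tested. Other depths were not tried.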
